A study of Mus musculus with 6 samples.

Results

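Adrenergic receptors are the G protein-coupled receptors for noradrenaline and adrenaline, and 7 mouse genes of this family (Adra1a, Adra1b, Adra1d, Adra2a, Adra2b, Adra2c and Adrb1) were followed here by gene symbol among 32531 gene features. All 7 passed the filter on low counts and were among the 16991 genes tested. Other genes of the family are not analysed here. Of the 7, Adra2a was higher and Adra2b lower in RNA held by tagged ribosomes than in unbound RNA, by 2.33-fold and 3.34-fold. The other 5 did not pass the main test, which does not use replicate pairs. The share called was 28.6% of the 7, against 44.3% of all genes tested (21.1% higher and 23.2% lower). Adra1d and Adra2c also passed, both lower, when same-numbered libraries were fitted as pairs. In that fit 46.9% of all genes tested were called.

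The alpha-1 receptors couple to Gq proteins, which activate phospholipase C and raise cell calcium. The alpha-2 receptors couple to Gi/o proteins, which lower cyclic AMP, open inwardly rectifying potassium channels and reduce transmitter release, also on noradrenergic axons themselves. The beta-1 receptor couples to Gs and raises cyclic AMP. The hypothalamus receives noradrenaline from axons of brainstem cell groups, and these receptors take part there in the control of feeding, arousal and pituitary hormones.

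The libraries came from the hypothalamus of adult, untreated control mice of the line Lhx5-TRAP DT154, which carries Lhx5-EGFP/Rpl10a. In such a line an EGFP-tagged ribosomal protein L10a is made where the Lhx5 driver is active, and anti-EGFP antibodies pull down the ribosomes that carry it with their RNA (translating ribosome affinity purification). The 3 immunopurified (IP) libraries were compared with 3 libraries that the sample type calls unbound and the titles call Input. Every group carries the transgene, and the labels do not say whether a library came from 1 mouse or from pooled mice, so p-values measure the spread between these libraries, which may be technical. The comparison asks which RNAs differ in level between the tagged ribosomes and the RNA left unbound. In bulk samples, fewer cells of a type and less RNA per cell cannot be told apart.

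Gene counts ranged from 32471045 to 46293837 in IP and from 32926146 to 40768577 in unbound libraries. Levels are CPM (a gene's reads scaled to a common library total, after TMM normalization). Fold changes were tested across all genes with edgeR's quasi-likelihood method, and each adjusted p below is its Benjamini-Hochberg value. Lhx5 was at 56.7 to 70.5 CPM in IP and at 1.86 to 6.28 CPM in unbound libraries. The 20 pan-neuronal markers summed to 22914 to 24371 CPM in IP and 15387 to 16669 CPM in unbound libraries. Of these markers, 13 were higher in IP, Map2 was lower and 6 were not called. Snap25 alone was at 11380 to 12781 CPM in IP and 7475 to 8941 CPM in unbound libraries. All 10 astrocyte, all 10 oligodendrocyte and all 10 microglia markers were lower in IP. Unbound replicate 3 stood apart: 9 striatal markers summed to 168 CPM there against 2111 and 1829 CPM in the other unbound libraries, 8 choroid plexus markers to 306 CPM against 2627 and 2858 CPM, and 13 hypothalamic markers to 12.4 CPM against 194 and 116 CPM, with Hcrt at 0. Not every list fell in that library: the 10 oligodendrocyte markers summed to 7015 CPM there against 3829 and 3653 CPM. The 14 endothelial and mural markers summed to 75.6 CPM against 42.2 and 34.1 CPM. In the IP libraries the hypothalamic markers summed to 257 to 305 CPM. Of the 12 tested, 5 were higher in IP (Sim1, Otp, Foxb1, Trh and Nkx2-1), 0 were lower and 7 were not called. Those not called had lower means in IP with overlapping groups, among them Avp (4.18 against 31.5 CPM) and Hcrt (1.49 against 17.1 CPM). The sum therefore does not describe each marker. Results that rest on unbound replicate 3 are given with and without it.

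The 3 alpha-2 genes are close relatives, and Adra2a and Adra2b passed in opposite directions, so a stretch of each coding sequence is shown to let a reader see how far their reads can be told apart. Each stretch covers the same 72 aligned coding bases, read from GENCODE transcripts on the plus strand of mm10, and capitals mark the 46 positions at which all 3 genes have the same base. They lie at chr19:54046653-54046724 (Adra2a), chr2:127363910-127363981 (Adra2b) and chr5:35280333-35280404 (Adra2c), each within a coding exon.
Adra2a: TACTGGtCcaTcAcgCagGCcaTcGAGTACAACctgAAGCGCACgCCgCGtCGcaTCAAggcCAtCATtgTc
Adra2b: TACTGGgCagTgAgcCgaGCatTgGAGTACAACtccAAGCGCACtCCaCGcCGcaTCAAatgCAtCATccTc
Adra2c: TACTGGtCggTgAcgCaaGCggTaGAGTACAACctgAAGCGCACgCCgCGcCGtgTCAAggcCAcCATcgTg
The longest run of identical coding bases was 26 for Adra2a and Adra2c, which falls in the stretch shown, 23 for Adra2b and Adra2c and 20 for Adra2a and Adra2b. Over the aligned coding bases, Adra2a was 72.8% identical to Adra2c and 69.3% identical to Adra2b. Among the alpha-1 genes the longest shared coding run was 20 bases. Neither the read length nor the strand setting of the counting is stated in the sources used here.

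Both genes that passed the main test were alpha-2 receptors, in a test that called 44.3% of all genes tested. Adra2a encodes the alpha-2A receptor, a common presynaptic and postsynaptic inhibitory receptor of brain neurons, and lies on chromosome 19 from 54044151 to 54048982 (mm10, plus strand). It was at 21.3, 21.3 and 20 CPM in IP replicates 1 to 3 and at 8.57, 7.38 and 11 CPM in unbound replicates 1 to 3. Every IP library was above every unbound library, and the IP libraries were nearly level, with an SD of 3.45% of the mean. The means were 20.9 ± 0.720 and 8.97 ± 1.82 CPM (SD, n = 3 each). The log2 fold change was 1.22 ± 0.19 (SE), with an edgeR adjusted p of 0.00132. Adra2a was called higher in all 18 alternative fits, with values from 0.64 under scaling on pan-neuronal markers to 1.40 without the third pair. Within lane 2 (replicates 1 and 3) the value was 1.09, and in lane 4, with 1 library per group, the log2 ratio was 1.53.

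**Figure D1:**
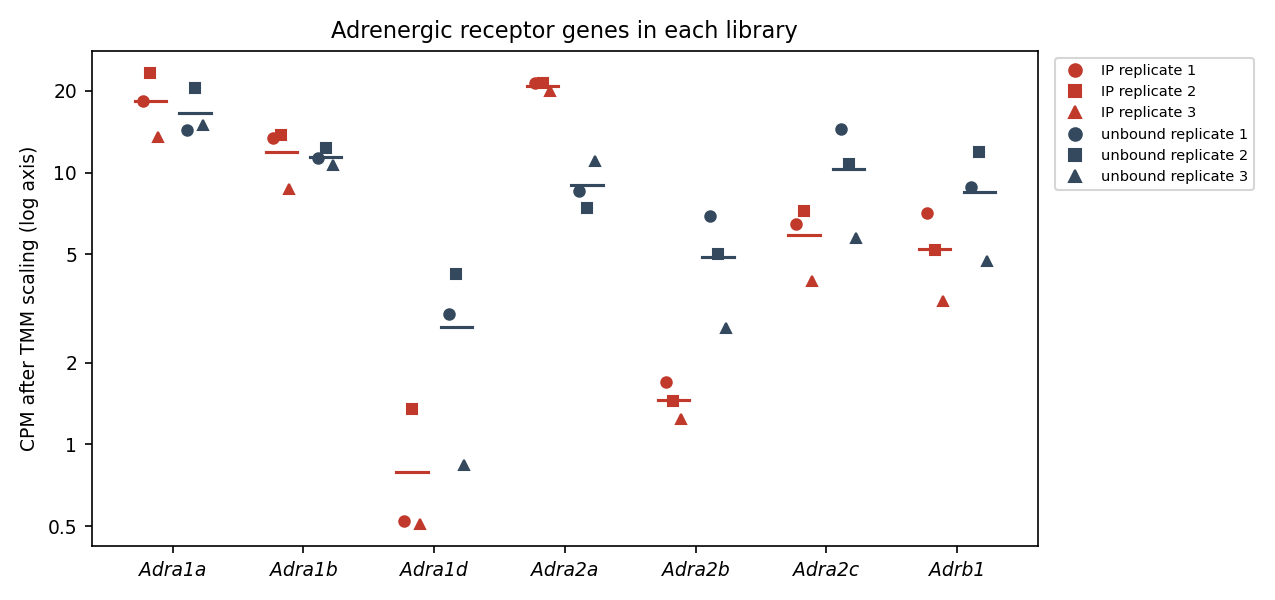
CPM after TMM scaling (log axis) of the 7 adrenergic receptor genes in the 3 IP (red) and 3 unbound (blue) libraries, with symbols for replicates and bars for group means. Adra2a is at 20 to 21.3 CPM in IP, above all unbound libraries, Adra2b is below all of them, and the groups overlap for the other 5 genes. Of all genes tested, 55.9% have groups that do not overlap.

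Adra2b encodes the alpha-2B receptor and is a gene without introns on chromosome 2 (127363208 to 127367221, plus strand). It was at 1.69, 1.45 and 1.24 CPM in IP and at 6.92, 5.03 and 2.69 CPM in unbound replicates 1 to 3. All 3 IP libraries were below all unbound libraries, from 45 to 71 reads in IP and 112 to 276 reads in unbound libraries. In edgeR it stood at -1.74 ± 0.39 on the log2 scale (SE; adjusted p = 0.00672). Without unbound replicate 3, its lowest unbound library, the value was -2.04. With lane 2 libraries alone it did not pass (-1.71, adjusted p = 0.0721, edgeR), and the log2 ratio of the lane 4 libraries was -1.80.

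Adra2c encodes the alpha-2C receptor, known for its high level in striatal neurons, and lies on chromosome 5 (35278319 to 35281763, plus strand). It was at 6.46, 7.23 and 4.0 CPM in IP and at 14.5, 10.8 and 5.75 CPM in unbound replicates 1 to 3. Unbound replicate 3 fell within the range of the IP libraries, so the groups overlapped. The log2 fold change of -0.81 ± 0.36 (SE) missed the threshold (edgeR adjusted p = 0.0941). It passed when replicate numbers were fitted as a block (-0.76, adjusted p = 0.0274, edgeR) and without unbound replicate 3 (-1.11, adjusted p = 0.00726, edgeR), the library in which the striatal markers were also low. Adra1d, Adra2b and Adrb1 were also lowest, among unbound libraries, in that library. The part of striatal, choroid plexus or glial RNA in these values, and that of the higher neuronal markers in the Adra2a values, was not tested.

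Shares of the alpha-2 reads need no scaling between libraries, and restate the Adra2a and Adra2b values in that form. Adra2a gave 72.3% (Wilson 95% interval 69.8 to 74.8), 71.0% (68.0 to 73.9) and 79.3% (76.8 to 81.5) of the alpha-2 counts in IP replicates 1 to 3. It gave 28.6% (26.1 to 31.2), 31.9% (28.7 to 35.2) and 56.5% (53.1 to 59.9) in unbound replicates 1 to 3. The intervals cover counting error only. No IP library overlapped with an unbound library, and the means were 74.2% ± 4.42 and 39.0% ± 15.2 (SD, n = 3). The difference did not pass a test: the two-sided exact permutation p was 0.1, the smallest that 3 against 3 allows, and 0.3 after Benjamini-Hochberg adjustment over the 6 shares tested. Reads of Adra2a outnumbered those of Adra2b by 12.6 to 16.1 times in IP and by 1.24 to 4.08 times in unbound libraries. Against Adra2c the ratio was 2.94 to 5.01 in IP and 0.593 to 1.90 in unbound libraries.

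The 3 alpha-2 genes together did not separate the groups. They gave 42.8%, 40.8% and 49.2% of the reads of the 7 genes in IP and 44.4%, 32.2% and 38.3% in unbound replicates 1 to 3. The difference of 6.02 percentage points was within the spread (two-sided exact permutation p = 0.3, and 0.450 adjusted over the 6 shares). The exact permutation p within replicate pairs was 0.5, and 3 pairs cannot bring it under 0.05. Adra2a alone gave 33.0% ± 5.31 of the 7 genes' reads in IP and 14.9% ± 5.98 in unbound libraries (exact permutation p = 0.1, two-sided; 0.3 adjusted). The alpha-1 genes gave 47.7% ± 4.02 and 48.7% ± 5.46 (exact permutation p = 0.900, two-sided), and Adrb1 7.99% ± 2.01 and 13.0% ± 3.61 (exact permutation p = 0.200, two-sided).

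**Figure D2:**
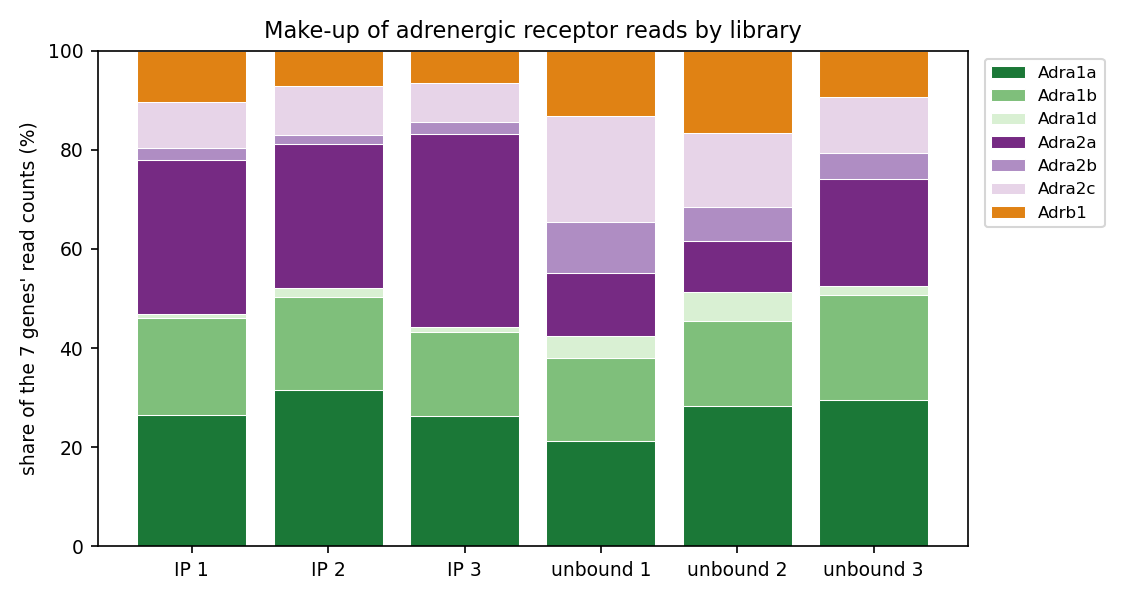
Share of the read counts of the 7 adrenergic receptor genes (%, bars from 0 to 100) in each library, with alpha-1 genes in greens, alpha-2 genes in purples and Adrb1 in orange. Adra2a takes 29.0% to 39.0% in IP and 10.2% to 21.6% in unbound libraries, while the alpha-1 genes together take 44.2% to 52.1% and 42.5% to 52.4%.

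No alpha-1 gene passed the main test, which called 44.3% of all genes tested, but Adra1d passed in 11 of 18 alternatives. Adra1a, which encodes the alpha-1A receptor, lies on chromosome 14 (66635251 to 66771168, plus strand) and was at 18.3, 23.2 and 13.5 CPM in IP and at 14.4, 20.4 and 15 CPM in unbound replicates 1 to 3. All unbound libraries lay inside the IP range. IP over unbound gave a log2 value of 0.14 ± 0.23 (SE; edgeR adjusted p = 0.644). Adra1b, which encodes the alpha-1B receptor, lies on chromosome 11 (43774606 to 43901210, minus strand) and was at 13.4, 13.7 and 8.67 CPM in IP and at 11.3, 12.3 and 10.7 CPM in unbound libraries. The same held for it, and IP over unbound gave 0.06 ± 0.21 on the log2 scale (SE; edgeR adjusted p = 0.832). Both values changed sign under pan-neuronal scaling, to -0.45 and -0.52, and neither passed in any of the 18 alternatives.

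Adra1d, which encodes the alpha-1D receptor, had the fewest reads of the family in IP, 22, 42 and 23, against 120, 146 and 35 in unbound replicates 1 to 3. The gene lies on chromosome 2 (131545850 to 131562283, minus strand), where the annotated antisense gene Gm14285 overlaps it, and reads of the 2 cannot be told apart without strand. Its levels were 0.523, 1.35 and 0.511 CPM in IP and 3.01, 4.24 and 0.839 CPM in unbound libraries. Only unbound replicate 3 reached down into the IP range. The log2 fold change of -1.77 ± 0.65 (SE) was just short of the threshold (adjusted p = 0.0519, edgeR). It passed in 11 of 18 alternatives, among them the replicate block (-1.64, adjusted p = 0.0304, edgeR) and the fit without unbound replicate 3 (-2.22, adjusted p = 0.00466, edgeR).

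Adrb1 encodes the beta-1 receptor and lies on chromosome 19 (56722199 to 56733113, plus strand). It was at 7.08, 5.20 and 3.38 CPM in IP and at 8.84, 11.9 and 4.72 CPM in unbound replicates 1 to 3. Again unbound replicate 3 fell within the IP range. The log2 fold change of -0.70 ± 0.38 (SE) missed the threshold (edgeR adjusted p = 0.163), and without that library the gene passed (-1.0, adjusted p = 0.0216, edgeR).

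Counted together, 1 of the 7 genes was higher and 1 lower in IP, which is 28.6% called, against 44.3% of all genes tested (21.1% higher and 23.2% lower). The groups did not overlap for 2 of the 7, against 55.9% of all genes tested. The median log2 fold change of the 7 was -0.70, and that of all genes tested was -0.01, with quartiles at -0.86 and 0.49. Fitted with a replicate block, 3 genes were lower and 1 higher (all genes: 23.6% lower and 23.3% higher, 46.9% in either direction), and without unbound replicate 3 Adra1d, Adra2b, Adra2c and Adrb1 were lower and Adra2a higher (all genes: 25.8% lower and 24.0% higher, 49.8% in either direction). Under pan-neuronal scaling, which moved the median of all genes to -0.59, the same 4 were lower and Adra2a was higher (all genes: 45.1% lower and 4.24% higher, 49.3% in either direction). The summed level of the 7 genes was 68.8, 73.4 and 51.4 CPM in IP and 67.4, 72 and 50.7 CPM in unbound replicates 1 to 3, so the family total did not separate the groups.

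**Figure D3:**
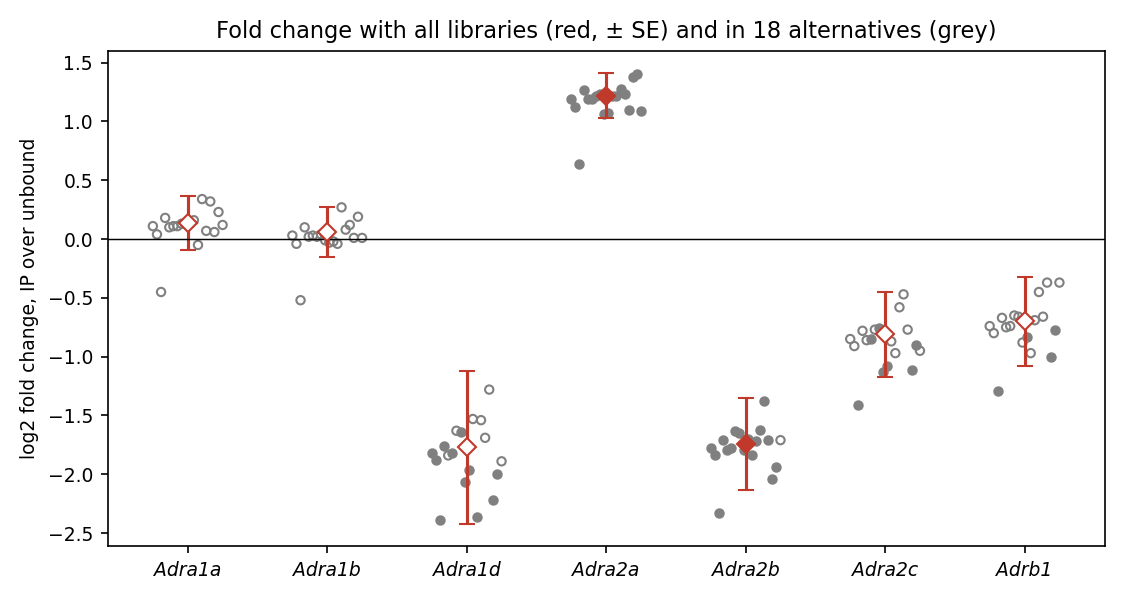
Log2 fold change of IP over unbound for the 7 genes, with all libraries as red diamonds with standard errors and the 18 alternative fits as grey circles, filled where the adjusted p was under 0.05. Adra2a stays at 0.64 to 1.40 and filled throughout, Adra2b at -2.33 to -1.38 with 1 open circle, and Adra1a and Adra1b lie around 0.

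Levels can be compared between genes only per length. Per kilobase of annotated exon, Adra2a was first in IP at 4.32 ± 0.149 CPM per kb, with a range apart from that of Adra1b, the next gene, at 3.53 ± 0.840 CPM per kb (SD, n = 3). Adra1a (2.10), Adra2c (1.71) and Adrb1 (1.54) followed with ranges that overlapped from each to the next. Adra1d (0.418) and Adra2b (0.363) were lowest, apart from Adrb1 and overlapping each other. By coding length their order was reversed, at 1.07 ± 0.163 (Adra2b) and 0.471 ± 0.285 CPM per kb (Adra1d) in IP, with separate ranges. In unbound libraries the order of the means was Adra1b (3.38), Adra2c (3.0), Adrb1 (2.51), Adra1a (1.90), Adra2a (1.86), Adra1d (1.42) and Adra2b (1.21 CPM per kb), and every gene overlapped the next. The annotated exons of Adra1a add up to 8728 bases and its longest transcript to 4282, and by longest transcript it stood beside Adra2a in IP (4.28 ± 1.12 and 4.32 ± 0.149 CPM per kb) with overlapping ranges. In unbound libraries Adra1a came first by longest transcript (3.88 ± 0.778 CPM per kb) and by coding length (11.9 ± 2.38 CPM per kb), overlapping the next gene each time.

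The genes whose profiles over the 6 libraries were most like each receptor were sought among 11257 genes with a mean of at least 5 CPM, by the root mean square difference of centred log2 levels. For Adra2a they were Hint2 (0.0622) and Tvp23a (0.0640), and for Adra2b Arhgdib (0.192) and Scn4b (0.199), a sodium channel subunit. For Adra2c they were Gpr155 (0.108) and Grik3 (0.109), a kainate receptor subunit, and for Adrb1 Slit3 (0.146) and Arhgap15 (0.166). Nuak1 (0.103) was most like Adra1a, Plod3 (0.0351) and Tm9sf3 (0.0562) were most like Adra1b, and Smad3 (0.245) and Npas2 (0.284) most like Adra1d. With 6 libraries and this many genes, close profiles are a description of these libraries only.

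Of 8 tested genes that make, store, take up or break down noradrenaline, 3 were lower in IP, against 23.2% of all genes tested, with a median of -1.39. Without unbound replicate 3 the median was -0.01, still with 3 lower, against 25.8% of all genes tested. When IP replicate 1, 2 or 3 was left out 1 was lower, against 3308 of 17542, 3542 of 17688 and 3605 of 17554 genes. Th, the first enzyme of catecholamine synthesis, was at 1.24 to 2.54 CPM in IP and at 8.90, 5.38 and 48.5 CPM in unbound replicates 1 to 3 (log2 -3.48, adjusted p = 0.0252, edgeR). Slc18a2, the vesicular monoamine transporter, was lower by a log2 value of -1.93 (adjusted p = 0.0285, edgeR). Both are shared with dopamine neurons, both were highest in unbound replicate 3 and stood at -1.93 and -1.0 without it, and neither passed with the replicate block (adjusted p = 0.0757 and 0.0718, edgeR). With the block 1 gene of the list, Maob, was lower, against 23.6% of all genes tested, and the median was -0.82. Dbh, the enzyme that makes noradrenaline itself, did not exceed 0.418 CPM in IP or 1.25 CPM in unbound libraries, and the 4 markers of noradrenergic cell bodies, Dbh among them, summed to 0.111 to 0.482 CPM in IP and 0.174 to 2.64 CPM in unbound libraries. Maob, an enzyme that degrades monoamines, was lower (log2 -1.77, adjusted p = 9.14e-04, edgeR) and was called in all 18 alternatives.

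The G protein alpha subunits to which these receptors couple had 5 higher and 1 lower of 10 tested, with a median of 0.54, against 21.1% higher and 23.2% lower of all genes tested and a median of -0.01. Gnaz, a Gi-class subunit, was at 114 to 138 CPM in IP and 50.7 to 57.8 CPM in unbound libraries (log2 1.25, adjusted p = 2.98e-04, edgeR), and Gnas, the Gs subunit, at 4050 to 4341 and 1608 to 2291 CPM (1.20, adjusted p = 8.84e-04, edgeR). These 2 were called in all 18 alternatives. Gnai2 (0.74), Gnao1 (0.57) and Gna11, a Gq-class subunit (0.51), were higher and Gnai3 (-0.47) lower, but under pan-neuronal scaling Gnai2 (0.16) did not pass and Gnao1 (-0.01) and Gna11 (-0.07) changed sign. That scaling gave 2 higher and 3 lower, against 4.24% and 45.1% of all genes tested. Gnai3 was called in 13 of the 18 alternatives. Gnas lies in an imprinted locus with overlapping antisense transcripts, and reads of these cannot be separated here.

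Among effectors, 4 of 16 tested were higher and 2 lower, with a median of 0.05, so the share higher was near the 21.1% and the share lower below the 23.2% of all genes tested. Kcnj5 (1.41, adjusted p = 0.00138) and Kcnj9 (0.66, adjusted p = 0.00789, edgeR), subunits of the potassium channels opened by Gi/o-coupled receptors, were higher, while Kcnj3 (0.05) and Kcnj6 (-0.14) did not pass. Of the adenylyl cyclases, Adcy7 (1.43) and Adcy2 (0.79) were higher and Adcy1 lower (-1.38). Plcb3, a phospholipase C beta, was at 1.19 to 1.86 CPM in IP and 6.51 to 7.47 CPM in unbound libraries (log2 -2.27, adjusted p = 5.25e-04, edgeR). Under pan-neuronal scaling Kcnj9 (0.07) and Adcy2 (0.20) did not pass. The list then had 2 higher and 8 lower, against 4.24% and 45.1% of all genes tested. Without unbound replicate 3 it had 6 higher and 4 lower, against 24.0% and 25.8% of all genes tested. Adcy1 did not pass without IP replicate 1 or IP replicate 3 (adjusted p up to 0.0723, edgeR).

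Of 10 tested genes that regulate the receptors, 4 were higher and 2 lower, with a median of 0.26, against 21.1% higher and 23.2% lower of all genes tested. Grk6 (0.78), Arrb2, which encodes beta-arrestin 2 (0.84), Rgs2 (0.73) and Adrbk1, the receptor kinase also called Grk2 (0.59), were higher. Grk5 (-0.65) and Ppp1r9b, the scaffold spinophilin (-0.46), were lower. Under pan-neuronal scaling 0 were higher and 3 lower, against 4.24% and 45.1% of all genes tested. Adrbk1 was then at 0.01, Rgs2 at 0.13, Grk6 at 0.20 and Arrb2 at 0.28. Rgs2 was called in 10, Ppp1r9b in 11 and Grk5 in 14 of the 18 alternatives. Without unbound replicate 3, Rgs2 was at 0.49 and Arrb2 at 1.10.

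**Figure D4:**
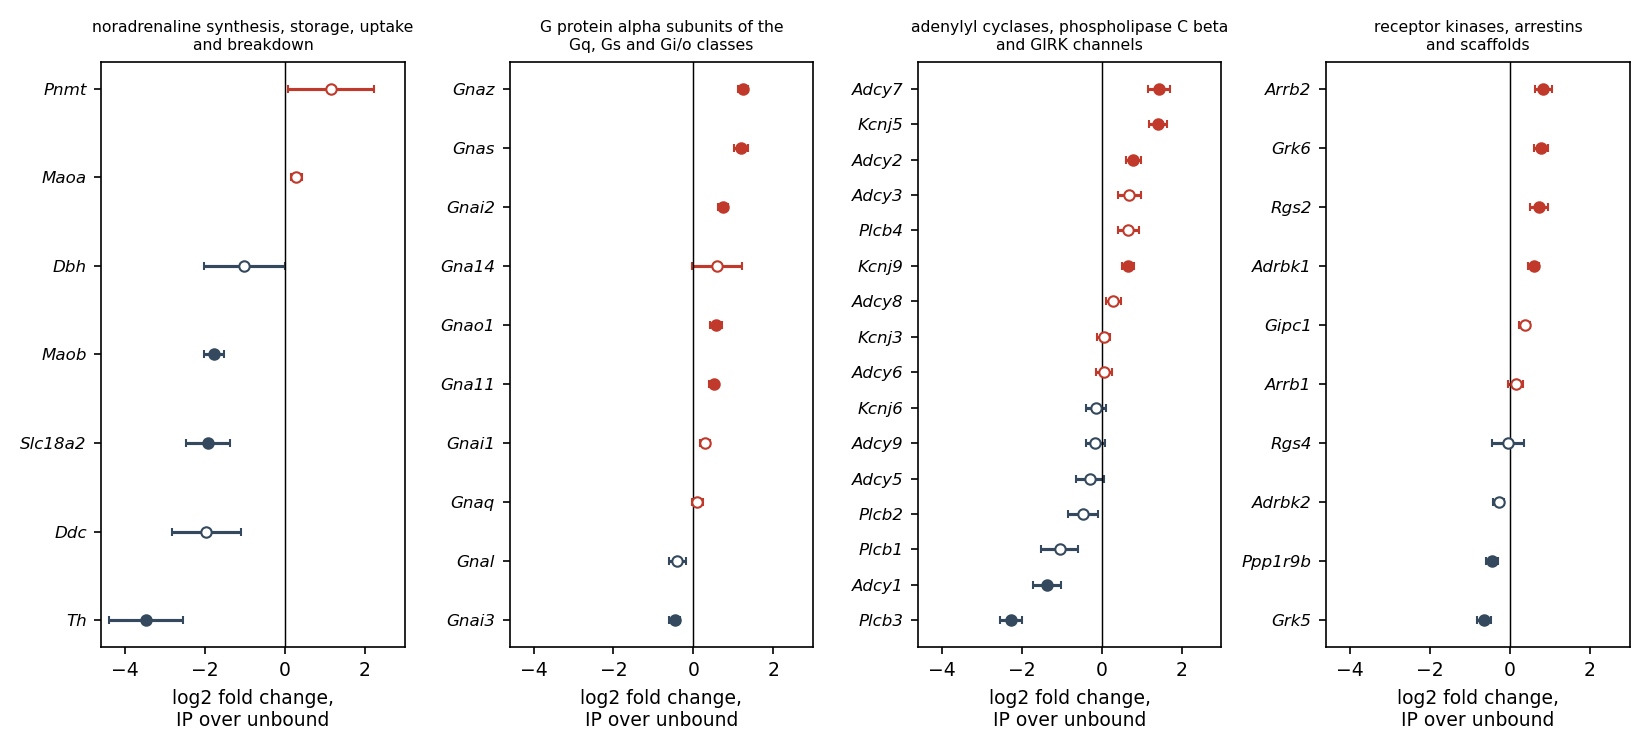
Log2 fold change of IP over unbound with its standard error for tested genes of the 4 lists around the receptors, red above 0 and blue below, filled where the adjusted p was under 0.05. The G protein panel has 5 filled points above 0 and 1 below, and the panel of noradrenaline genes has 3 filled points below 0. Of all genes tested, 21.1% were called higher and 23.2% lower.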

How the data were processed

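RNA-seq was deposited for 3 IP and 3 unbound libraries as raw read counts per gene. Per the submitters' processing notes, the tools used by the authors were STAR 2.0.0e and HTSeq and the build was mm10; no annotation or strand setting is stated in the sources used here. The 6 rows that name no gene (reads without a feature, ambiguous reads, reads aligned to more than 1 place and the like) stayed out of library sizes and tests. Ambiguous reads were 1.58% to 1.64% of all listed reads in IP and 7.08% to 9.02% in unbound libraries, and reads aligned to more than 1 place 43.8% to 45.0% and 31.8% to 32.9%.

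All genes were tested with edgeR 4.0.16 (R 4.3.3), TMM scaling, filterByExpr defaults (minimum count 10, minimum total 15), robust quasi-likelihood fits on group, and Benjamini-Hochberg adjustment over 16991 genes at 0.05. Each standard error is the estimate over the root of its F statistic. DESeq2 1.42.0 and limma-voom 3.58.1 were alternatives. GC content, exon length and coordinates came from GENCODE M21 (GRCm38), which matched 23892 of 32531 features. On simulated counts for IP against unbound (16689 genes) 32.0% of the 100 genes simulated at 2-fold and 79.0% of the 100 at 4-fold were called, with 6 false calls among 117. No other genes were changed in the simulation, whereas 7529 of 16991 genes were called in the data. The adjusted threshold was therefore stricter in the simulation, and these rates do not measure recovery in the data.

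The members and lists were chosen with earlier results of these data known. Named were all 7 receptors, called members of 4 pathway lists (up to 6 a list and any called the other way), Lhx5, and the 2 most alike profiles per receptor (0.01 CPM was added before log2). Other genes named, such as Dbh, Kcnj3, Kcnj6 and Hcrt, and the shares other than that of the alpha-2 genes, were chosen after values were seen. Some genes that this rule names, and their values, are not reported here.

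Both groups use the same replicate numbers, and lane follows them (lane 4 for replicate 2, lane 2 for the rest). Deviations of same-numbered libraries from their group means correlated over genes at 0.139, 0.164 and 0.206, and since each was over 0.1 the libraries were treated as paired in the block fit; the main test does not use the pairing. Further alternatives, without the third pair and with lane 2 alone, were added after seeing the data.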

Additional observations from a re-analysis of the deposited data

How the results depend on the processing

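Each receptor gene was refitted in 18 alternatives. Adra2a kept its call in all of them and Adra2b in 17, losing it with lane 2 libraries alone (-1.71, adjusted p = 0.0721, edgeR). When 1 library was left out, values ranged from 1.10 to 1.38 for Adra2a, -2.04 to -1.38 for Adra2b, -2.36 to -1.28 for Adra1d, -1.11 to -0.47 for Adra2c, -1.0 to -0.37 for Adrb1, -0.05 to 0.34 for Adra1a and -0.04 to 0.27 for Adra1b. Adra1d then passed without IP replicate 2 (-2.36) or unbound replicate 3 (-2.22), and Adra2c and Adrb1 without unbound replicate 3 (-1.11 and -1.0); the causes were not tested. Adra1d passed with median-ratio size factors (-1.82), library size alone (-1.88), no low-count filter (-1.76) and DESeq2 (-1.82). With the replicate number as a block Adra1d (-1.64) and Adra2c (-0.76) passed, and the block changed no other call among the receptor genes. With the GC trend removed Adra1d (-2.07) and Adra2c (-1.13) passed, and with that and the block Adra1d (-1.96), Adra2c (-1.08) and Adrb1 (-0.83). Under pan-neuronal scaling Adra1d (-2.39), Adra2c (-1.41) and Adrb1 (-1.29) passed, and so did they without the third pair (-2.0, -0.90 and -0.77); DESeq2 called Adra2c (-0.85). Adra1a changed sign under pan-neuronal scaling (-0.45) and without IP replicate 2 (-0.05). Adra1b did so under pan-neuronal scaling (-0.52), library size alone (-0.04), the GC trend removed (-0.01), that with the block (-0.03), and without IP replicate 1 (-0.02) or IP replicate 2 (-0.04); it passed in none of these.

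The number of receptor genes lower in IP was 1 with all libraries, where 3943 of 16991 genes tested were lower. It was 2 with median-ratio size factors (4074 of 16991 genes), library size alone (4335 of 16991) or no low-count filter (4126 of 23086). It was 3 with DESeq2 (4444 of 16991), the replicate block (4017 of 16991) or the GC trend removed (3909 of 16991). It was 4 under pan-neuronal scaling (7659 of 16991) or without the third pair (4649 of 17015). With the GC trend removed and the block it was also 4 (3989 of 16991). With lane 2 alone it was 0, where 2538 of 17320 genes were lower. Adra2b and Adra1d had unadjusted p of 0.02 and 0.0437 there in edgeR. When 1 library was left out it was 1 to 4, with 3263 to 4448 genes of the whole table lower. Over all genes, 3586 higher and 3943 lower (47.6% higher) became 720 and 7659 (8.59% higher) under pan-neuronal scaling, which moved the median to -0.59, and 1297 and 2538 (33.8% higher) with lane 2 alone. The difference in alpha-2 share was 2.96 to 9.09 percentage points when 1 library was left out, 6.37 per length and 6.02 with the replicate block. Adra1d had the fewest reads in IP, 22 to 42 per library; the part of depth in its calls was not tested.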

Other observations

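IP replicate 3 was the lowest IP library for 7 of the 7 genes, while 35.4% of all genes tested were lowest there. The gap was small for Adra2a (20 against 21.3 CPM in IP replicates 1 and 2). For Adra1d it was 0.511 against 0.523 CPM in IP replicate 1, from 23 and 22 reads. Unbound replicate 3 was the lowest unbound library for 5 of 7, against 32.0% of all genes tested. Summed marker levels of several other tissues were also lowest in IP replicate 3 among the IP libraries: 224 CPM for the striatal list against 366 and 412 CPM, 131 CPM for the choroid plexus list against 265 and 440 CPM, and 151 CPM for the astrocyte list against 230 and 352 CPM. The part of these in the receptor values was not tested. The exceptions in the unbound libraries were Adra2a, for which replicate 3 was the highest at 11 CPM, and Adra1a, for which replicate 1 was the lowest at 14.4 CPM.

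The log2 ratio of same-numbered IP and unbound libraries was smallest in size at number 3 for Adra1d (-2.52, -1.65 and -0.72 for numbers 1 to 3), Adra2a (1.31, 1.53 and 0.87), Adra2b (-2.04, -1.80 and -1.11) and, by little, Adra2c (-1.16, -0.57 and -0.52). For Adrb1 it was smallest at number 1 (-0.32, -1.19 and -0.48). For Adra1a (0.35, 0.18 and -0.15) and Adra1b (0.25, 0.16 and -0.31) it was below 0 at number 3 only. These values were chosen after they were seen and carry no test.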
